A study of Mus musculus with 3 samples.

Results

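The melanocortin system of melan-a cells was examined through 9 genes of the 22698 measured. The genes were chosen by mouse symbol, by a rule that uses no measured value, though with earlier results of these data known. They are the 5 melanocortin receptors Mc1r to Mc5r, the ligand genes Pomc and Asip, and Atrn and Mgrn1, whose products are needed for the action of ASIP. RNA-seq had been performed on untreated melan-a cells, an immortalized line of mouse melanocytes, in 1 group of 3 replicates that are labelled 1, 3 and 4. According to the labels, the cells have a C57BL/6J strain background and derive from Ink4a-ARF-/- mice. All replicates were grown with 10% fetal bovine serum, 200 nM 12-O-tetradecanoylphorbol 13-acetate (TPA, an activator of protein kinase C) and 200 pM cholera toxin, which locks the stimulatory G protein Gs in its active form. No group without these agents was measured, so all levels below are those of cells grown with them.

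MC1R is the Gs-coupled receptor through which melanocytes sense alpha-melanocyte-stimulating hormone, a peptide cut from the POMC precursor. When the receptor is stimulated, cAMP rises, MITF is induced and the cell makes black or brown eumelanin. Agouti signaling protein, the product of Asip, is made by dermal cells of the hair follicle and antagonizes MC1R, which turns the melanocyte to yellow pheomelanin. Attractin (Atrn) and the ubiquitin ligase mahogunin (Mgrn1) were identified through the dark coats of mahogany and mahoganoid mice. The C57BL/6J strain carries the nonagouti allele of Asip.

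Of the 9 genes, 4 had at least 3 reads in every replicate (Mc1r, Pomc, Atrn and Mgrn1), against 58.0% of all genes with a gene model. A mean of at least 1 FPKM (a count of reads divided by gene length in kilobases and by library size) was reached by 3 members, Mc1r, Atrn and Mgrn1, against 45.1% of all genes. The other 5 members, 4 of the receptors and Asip, were at or near 0. The series holds 1 condition, so levels are described and no groups of samples were compared. FPKM is corrected for gene length, and the levels of different genes below are compared only on that scale. A minimum of 3 reads, given below for each gene as the FPKM it comes to, was the smallest level called measurable.

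**Figure D1:**
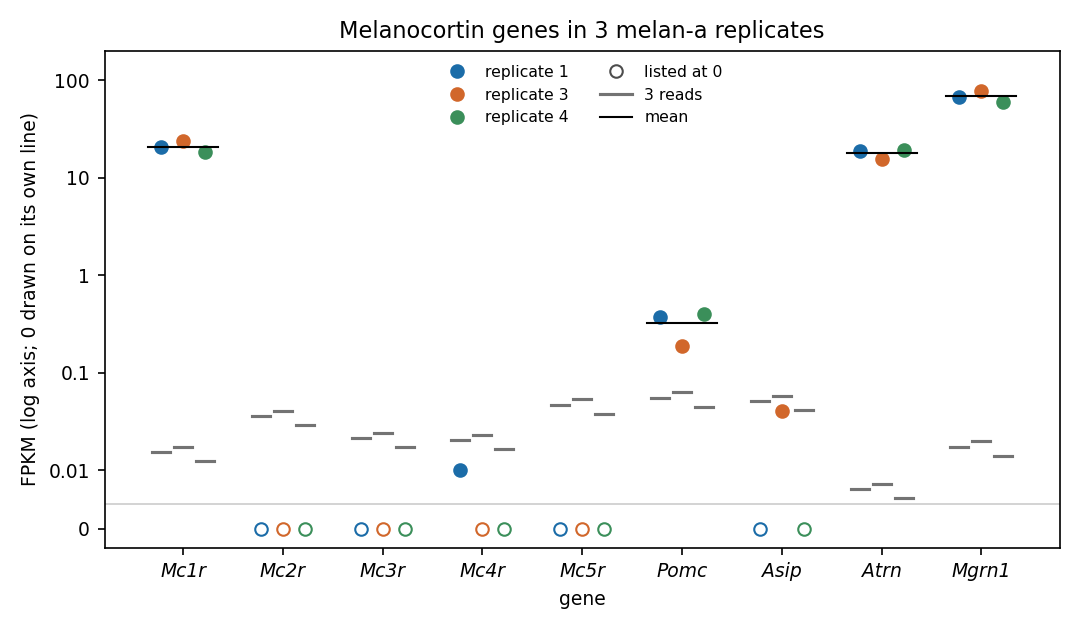
FPKM of the 9 melanocortin genes (log vertical axis, with 0 on a line of its own) in replicates 1, 3 and 4, drawn as blue, orange and green points. Short gray bars mark the level of 3 reads in each replicate and black bars the mean of the genes above it. Mgrn1, Mc1r and Atrn lie between 15.5 and 78.0 FPKM, Pomc lies below 0.5 FPKM, and the other receptors and Asip lie on the 0 line or below the bars in every replicate.

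The promoters of Mc1r and Mgrn1 are shown because these genes had the highest levels among the members and their promoters hold a searched motif. The sequences are from RefSeq (GRCm38.p6), cover 250 bases before to 50 bases after the RefSeq start site and run 5′ to 3′ on the plus strand, which is the coding strand of both genes. Capitals mark matches to the motifs described after the sequences. Each sequence had 1 exact match in mm9, the build of the deposited values, at chr8:125930732-125931031 for Mc1r and at chr16:4885850-4886149 for Mgrn1.
Mc1r: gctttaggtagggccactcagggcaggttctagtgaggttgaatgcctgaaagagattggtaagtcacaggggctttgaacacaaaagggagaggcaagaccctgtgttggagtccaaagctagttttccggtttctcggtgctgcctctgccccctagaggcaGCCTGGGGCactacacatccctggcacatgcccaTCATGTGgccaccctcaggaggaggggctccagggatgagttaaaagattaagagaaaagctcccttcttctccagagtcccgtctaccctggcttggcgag
Mgrn1: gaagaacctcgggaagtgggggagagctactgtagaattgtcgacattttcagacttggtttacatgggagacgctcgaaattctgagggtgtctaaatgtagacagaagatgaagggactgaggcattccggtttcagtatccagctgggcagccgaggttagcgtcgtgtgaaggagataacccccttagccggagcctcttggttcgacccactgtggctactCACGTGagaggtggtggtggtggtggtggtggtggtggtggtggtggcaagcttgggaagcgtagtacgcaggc

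Both strands of the promoters were searched for TCATGTG, the core of the M-box bound by MITF, for CACGTG, the palindromic E-box, for GCCNNNGGC, the palindrome bound by TFAP2 factors, and for TGACGTCA, the palindromic site of CREB. The Mc1r promoter held TCATGTG at -52 to -46 and GCCTGGGGC, a match to the TFAP2 palindrome, at -86 to -78 relative to the start site. Among 32851 RefSeq promoters of the same length, 3.77% held TCATGTG and 16.6% held the TFAP2 palindrome. The Mgrn1 promoter held CACGTG at -24 to -19, a motif present in 7.15% of all promoters. The CREB palindrome, present in 1.79% of all promoters, was in neither. The start sites of RefSeq and Ensembl coincided for Mc1r, whereas the RefSeq start of Mgrn1 lay 152 bases upstream of the Ensembl start. RefSeq promoters were matched for 6 of the 9 members. Those of Atrn, Asip, Mc3r and Pomc held none of the 4 motifs in this window. The RefSeq start of Asip lies 222168 bp downstream of the Ensembl start, so its window belongs to a downstream start of the gene model. Mc2r, Mc4r and Mc5r were not matched. A match describes letters in the window and was not tested for binding here. The study's paper reports TFAP2A ChIP-seq peaks associated with Mc1r in melan-a cells, and lower Mc1r RNA after Tfap2a knockdown. Whether those peaks cover this match was not examined here.

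Mc1r (ENSMUSG00000074037) was the only melanocortin receptor with at least 3 reads in each replicate, 1 of 5 (20%) against 58.0% of all genes. It lies on the plus strand of mm9 at chr8:125930982-125934642 and is annotated as a single exon of 3661 bases, of which the coding sequence takes 945 bases (25.8%). Replicates 1, 3 and 4 gave 20.6, 23.7 and 18.2 FPKM, which average 20.8 ± 2.78 FPKM (SD, n = 3). Replicate 3 was the highest and replicate 4 the lowest. By the mean, Mc1r stood at rank 3161 of all genes, with 13.9% of genes higher, and its rank in single replicates ran from 2865 to 3458. The levels rest on about 4061, 4085 and 4435 reads in replicates 1, 3 and 4, which were recovered from the FPKM steps. Exact 95% Poisson intervals, which here and below cover counting error only, were 19.95 to 21.2 FPKM in replicate 1, 23.0 to 24.5 in replicate 3 and 17.7 to 18.7 in replicate 4. At this number of reads the intervals are narrow, and they do not overlap. The reads are approximate: rounding of the values alone leaves them uncertain by up to 1.22 reads for Mc1r, 1.07 for Mgrn1 and 2.91 for Atrn, and an error in the recovered library size would scale them. The gene-level values do not show where in the exon the reads lie.

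The other 4 receptors serve other tissues in the body. MC2R is the corticotropin receptor of the adrenal cortex, MC3R and MC4R act in the brain in the control of energy balance, and MC5R acts in exocrine glands. Mc2r, Mc3r and Mc5r were listed at 0 in every replicate. At the rounding of the files, 1 read on any of these receptors would have been written as more than 0, so a listed 0 is 0 reads. The limit taken for a count of 0 was 3 reads, where the two-sided exact 95% Poisson interval used for the other counts would reach 3.69 reads. A level of 3 reads comes to between 0.0172 and 0.0540 FPKM depending on the gene and the replicate. With this limit of 3 reads, Mc1r was at least 437-fold higher than Mc5r in every replicate, at least 578-fold higher than Mc2r and at least 970-fold higher than Mc3r. These limits were set in each replicate separately.

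Mc4r was listed at 0.01 FPKM in replicate 1 and at 0 in replicates 3 and 4. Because of the rounding, the value in replicate 1 corresponds to 1 or 2 reads, below the 0.0202 FPKM of 3 reads in that replicate. With 1 read, the exact 95% Poisson interval reaches up to 0.0375 FPKM. Expression of Mc2r to Mc5r was therefore not detectable at this depth.

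Mc2r, Mc4r and Mc5r all lie on chromosome 18 of mm9, Mc2r (ENSMUSG00000045569) on the minus strand at chr18:68566561-68588905, Mc4r (ENSMUSG00000047259) on the minus strand at chr18:67017369-67020126 and Mc5r (ENSMUSG00000007480) on the plus strand at chr18:68497250-68499377. Mc5r and Mc2r are adjacent among the measured genes, with 67183 bp between them, and Rnmt lies nearer to Mc5r on its other side, at 12743 bp. Mc3r (ENSMUSG00000038537) is the only melanocortin receptor on chromosome 2, on the plus strand at chr2:172073992-172076614. The surroundings of Mc1r differ. Tcf25 ends 2908 bp before it and Tubb3, a beta-tubulin gene on the same strand, starts 681 bp after it. Tubb3 had 218.8, 249.4 and 180.5 FPKM in replicates 1, 3 and 4, and Tcf25 had 116.4, 135.8 and 99.6 FPKM. Both neighbors were higher than Mc1r and, like it, highest in replicate 3 and lowest in replicate 4. Replicates 3 and 4 differ with GC content across genes, as described below, and nothing is read from the shared order. No annotated exon of another gene overlaps Mc1r on either strand, and whether transcripts of a neighbor add reads to its exon was not tested.

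Among 42 listed receptors that signal through Gs, Mc1r had the highest level. The list held 42 receptors, the 5 melanocortin receptors and 37 others. Of the 37 others, 8 (21.6%) had at least 3 reads in every replicate, against 58.0% of all genes. Of these 37, 1 reached 1 FPKM, against 45.1% of all genes. Their median was 0.00333 FPKM, against a median of 0.277 FPKM over all genes. The prostacyclin receptor Ptgir followed Mc1r with 1.40, 1.19 and 1.54 FPKM in replicates 1, 3 and 4 (mean 1.38 ± 0.18, SD, n = 3). Mc1r was 11.8- to 19.9-fold higher than Ptgir within single replicates, and their ranges do not overlap. The adenosine receptor Adora2a had a mean of 0.547 ± 0.186 FPKM and the parathyroid hormone receptor Pth1r a mean of 0.357 ± 0.0569 (SD, n = 3). The value of Adora2a in replicate 1 equaled that of Pth1r, so these neighbors in the order are not separated. The orphan receptor Gpr3 followed with a mean of 0.1 FPKM, and 17 of the 37 others were at 0 in all replicates. Of the summed FPKM of the 42 receptors, Mc1r made up 88.4% in replicate 1, 90.03% in replicate 3 and 86.6% in replicate 4.

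**Figure D2:**
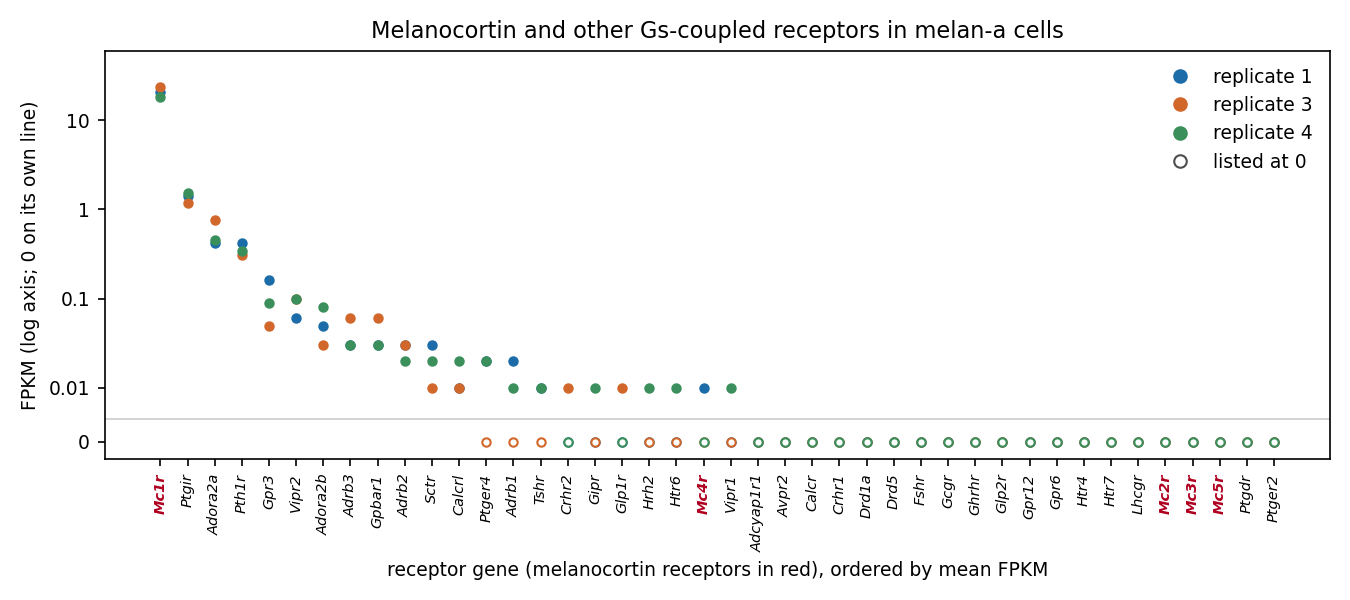
FPKM of the 42 listed Gs-coupled receptors (log vertical axis, with 0 on a line of its own) in the 3 replicates, ordered by mean level. Filled points are values above 0 and open points are values listed at 0, and the melanocortin receptors are named in red. Mc1r stands alone above 10 FPKM, Ptgir is next at 1.38 FPKM, and Mc2r, Mc3r and Mc5r are at 0 in every replicate.

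Of the 2 ligand genes, Pomc was measurable and Asip was not. Pomc (ENSMUSG00000020660, mm9 chr12:3954951-3960618, plus strand, 3 exons joining to 1007 bases) encodes the precursor of the melanocyte-stimulating hormones, corticotropin and beta-endorphin. Replicates 1, 3 and 4 gave 0.37, 0.19 and 0.40 FPKM, which average 0.32 ± 0.11 (SD, n = 3), at rank 11231. These values correspond to 20, 9 and 27 reads, 56 in all, and 3 reads come to between 0.0447 and 0.0634 FPKM. The exact 95% Poisson intervals were 0.225 to 0.569 FPKM, 0.0870 to 0.361 FPKM and 0.265 to 0.586 FPKM in replicates 1, 3 and 4. All 3 overlap, but overlap alone does not show whether the lower value in replicate 3 is more than counting error. Mc1r was 55.6-fold higher than Pomc in replicate 1, 125-fold in replicate 3 and 45.5-fold in replicate 4. Pomc was just above the median of all genes, 0.277 FPKM, by less than its SD.

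Asip (ENSMUSG00000027596) is annotated on the plus strand of mm9 at chr2:154617138-154876748 with 6 transcripts, whose coding models join to 1094 exon bases. It was listed at 0 FPKM in replicates 1 and 4 and at 0.04 FPKM in replicate 3, which corresponds to 2 reads, below the 0.0583 FPKM of 3 reads there. Of its exon bases, 147 (13.4%) are shared with exons of Raly, a gene on the same strand with 128.1, 133.4 and 120.2 FPKM in replicates 1, 3 and 4. How reads on the shared bases were counted was not given in the sources used here, so the 2 reads are uncertain. Asip was not detectable at this depth in these cells.

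The ASIP accessory genes were both well above the minimum. Mgrn1 (ENSMUSG00000022517) had the highest level of the 9 members. It lies on the plus strand of mm9 at chr16:4886252-4938296, with up to 18 exons that join to 3204 bases. Replicates 1, 3 and 4 gave 66.9, 78.0 and 60.1 FPKM, which average 68.3 ± 9.05 FPKM (SD, n = 3), at rank 951 with 4.19% of genes higher. The approximately 11548, 11749 and 12825 reads behind these values give exact 95% Poisson intervals of 65.7 to 68.1, 76.6 to 79.4 and 59.1 to 61.2 FPKM, which do not overlap. Like Mc1r, Mgrn1 was highest in replicate 3 and lowest in replicate 4.

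Atrn (ENSMUSG00000027312) encodes a large membrane protein that binds ASIP. It lies on the plus strand of mm9 at chr2:130732231-130856069, with up to 29 exons that join to 8745 bases. It had 18.6, 15.5 and 19.4 FPKM in replicates 1, 3 and 4, which average 17.8 ± 2.05 FPKM (SD, n = 3), at rank 3560. The order of replicates was the reverse of that of Mc1r and Mgrn1, with replicate 3 the lowest and replicate 4 the highest. From about 8762, 6367 and 11281 reads, the exact 95% Poisson interval in replicate 3, 15.1 to 15.9 FPKM, lay below those of replicate 1 (18.2 to 19.0) and replicate 4 (19.0 to 19.7). The gene 4930402H24Rik starts 88 bp before Atrn on the opposite strand, and had 27.1, 27.0 and 32.1 FPKM. No exon of another annotated gene overlaps the exons of Atrn, Mgrn1 or Pomc.

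Ordered by mean, the members ran Mgrn1, Mc1r, Atrn, Pomc, Asip, Mc4r and then the 3 receptors at 0. Mgrn1 was 3.25-fold higher than Mc1r in replicate 1, 3.29-fold in replicate 3 and 3.30-fold in replicate 4, a mean ratio of 3.28 ± 0.03 (SD, n = 3). The levels of both genes varied between replicates by a coefficient of variation of over 13% (13.4% for Mc1r and 13.2% for Mgrn1), yet their ratio was nearly constant. The trend with GC content described below runs the same way for both genes. With it removed, replicates 1, 3 and 4 gave 20.5, 22.2 and 19.5 FPKM for Mc1r. For Mgrn1 they gave 66.5, 70.4 and 66.7 FPKM. Mc1r was then lowest in replicate 4 and Mgrn1 in replicate 1, and their ratio was less steady. How much of the steady ratio goes with this trend was not tested. Mgrn1 was also above Atrn in every replicate, with ratios of 3.60, 5.04 and 3.10 in replicates 1, 3 and 4. With the length used here Mc1r and Atrn were not separated, as their ratios were 1.11, 1.53 and 0.939, Mc1r was higher in 2 of 3 replicates and their ranges overlap. An exact permutation test that treats 3 values of one gene and 3 of another as groups cannot give a two-sided p below 0.1, so none was run. These ratios rest on the length assigned to each gene, and the choice for Atrn moves them by 1.5 times. With all annotated exons of Atrn, which include those of non-coding transcripts, its mean came to 11.8 FPKM, the ratio of Mgrn1 to Atrn to 5.91 and that of Mc1r to Atrn to 1.80. With that length Atrn had 12.3, 10.3 and 12.8 FPKM in replicates 1, 3 and 4, Mc1r was higher in 3 of 3 replicates and the ranges no longer overlapped, so whether Mc1r and Atrn are separated depends on the length of Atrn.

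**Figure D3:**
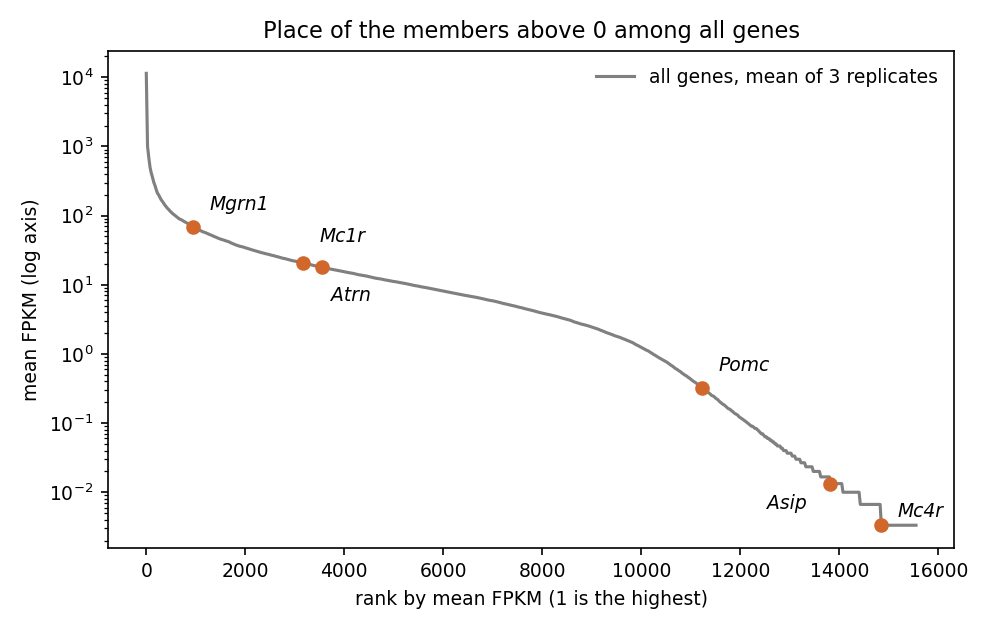
Mean FPKM (log vertical axis) against rank for all genes with a mean above 0, as a gray line, with the 6 members above 0 as orange points. Mgrn1 lies at rank 951, Mc1r and Atrn lie close together at ranks 3161 and 3560, and Pomc lies at rank 11231 on the steeper part of the curve.

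The opposite orders of the replicates were set beside base composition. Across 10006 genes of at least 1 FPKM, the log2 difference between replicate 3 and replicate 4 rose with the GC content of the transcript (Spearman's rho of 0.78 across genes, which share their libraries and are not independent). The fitted difference was -0.47 at a GC content of 42.3% and 0.42 at 58.3%. Mc1r, with a GC content of 53.6%, differed by 0.38 on the log2(FPKM + 0.1) scale where the trend gave 0.20. Mgrn1, at 55.9%, also differed by 0.38 where the trend gave 0.30. Atrn, at 48.7%, differed by -0.32 where the trend gave -0.12. All 3 genes lay on the side of the trend and beyond it. Pomc, at 59.5%, differed by -0.79 where the trend gave 0.47, with only 9 reads in replicate 3. With the trend removed, the SD was 1.35 FPKM for Mc1r in place of 2.78, 2.21 for Mgrn1 in place of 9.05 and 1.45 for Atrn in place of 2.05. For Pomc it was 0.175 FPKM in place of 0.114.

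**Figure D4:**
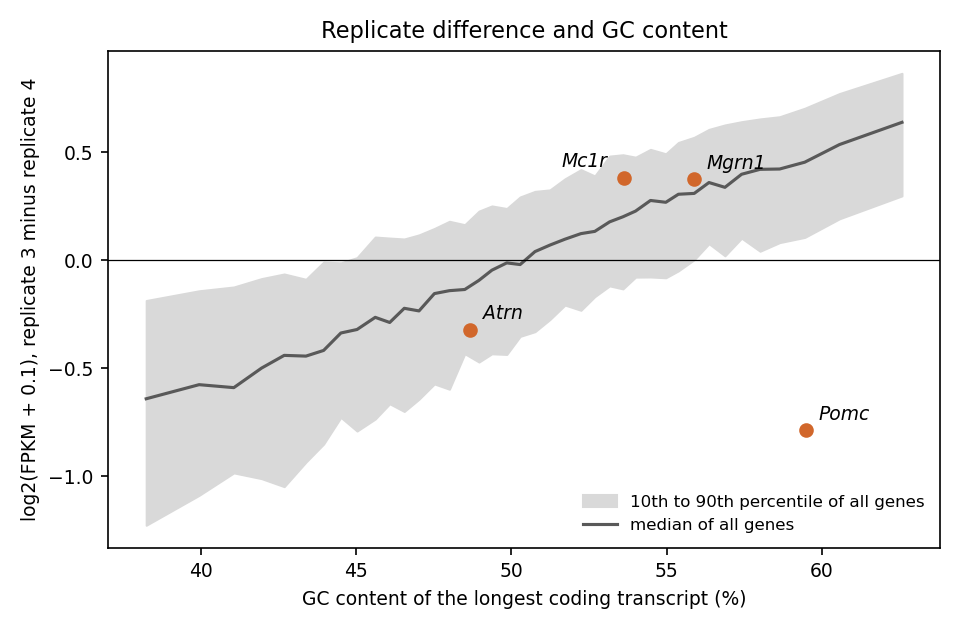
Difference in log2(FPKM + 0.1) between replicates 3 and 4 (vertical axis) against the GC content of the transcript in percent (horizontal axis). The dark line is the median of all genes of at least 1 FPKM in bins of GC content, the gray band spans their 10th to 90th percentile, and orange points are the 4 measurable members. Mc1r and Mgrn1 lie above 0 and above the line, Atrn lies below both, and Pomc lies far below the band at -0.79.

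The genes nearest in level over the 3 replicates were found by the Euclidean distance in log2(FPKM + 0.1), out of all genes. For Mc1r they were Ndufb8 (distance 0.0244), a subunit of mitochondrial complex I, Rps10 (0.0256), a protein of the small ribosomal subunit, and B230208H17Rik (0.0314). For Mgrn1 they were 0910001L09Rik (0.0194), Pofut2 (0.0483) and 0610010O12Rik (0.0519), and for Atrn they were Ankrd11 (0.0461), Kif2c (0.0568) and Slc30a5 (0.0625). Each likeness is over 3 values of 1 condition. By the choice of this measure, the genes nearest to Mc1r and Mgrn1 were all highest in replicate 3 and lowest in replicate 4, and those nearest to Atrn had replicate 3 lowest.

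Of 9 other genes of the melanocortin system, 4 (44.4%) had at least 3 reads in every replicate, against 58.0% of all genes, with a median of 0.0467 FPKM for the list. The proteoglycan gene Sdc3, whose product modulates melanocortin signaling in the hypothalamus, had 146.8, 166.6 and 93.7 FPKM in replicates 1, 3 and 4. Tsg101, a sorting factor that mahogunin ubiquitinates, had 30.6, 31.8 and 31.1 FPKM, with the smallest spread relative to its mean among the 4 measurable genes. The paralogs of the accessory genes were also present. Rnf157, the paralog of Mgrn1, had 18.6, 20.8 and 14.4 FPKM (mean 17.9 ± 3.26, SD, n = 3), and Atrnl1, the paralog of Atrn, had 2.09, 1.82 and 1.79 FPKM (mean 1.90 ± 0.17). Mgrn1 and Atrn were each above their paralog in every replicate. The other 5 fell below the minimum in at least 1 replicate. Agrp, the agouti-related antagonist of MC3R and MC4R, was listed at 0, 0 and 0.14 FPKM, with 6 reads in replicate 4. Mrap, an accessory protein that MC2R needs, was listed at 0 in replicates 1 and 3 and at 0.02 FPKM in replicate 4. Mrap2, Corin, a protease that modifies agouti signaling, and Defb14, a beta-defensin, were at 0 in every replicate.

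Pomc was accompanied by unequal levels of the genes that process its product. Of 7 such genes, 5 (71.4%) had at least 3 reads in every replicate, against the same 58.0%, and 4 reached 1 FPKM, with a median of 1.11 FPKM. The prohormone convertases, which make the first cuts in POMC, and Pcsk1n, whose product inhibits PCSK1, were the 3 lowest of the list. Pcsk1n was listed at 0.03 FPKM in replicate 3 and at 0 in the others. Pcsk1 was listed at 0.02 FPKM in replicate 1 and at 0 in replicates 3 and 4, and Pcsk2 had 0.12, 0.15 and 0.19 FPKM. Carboxypeptidase E (Cpe), which trims the cut ends, had 440.1, 324.7 and 537.3 FPKM, the highest of the list, and the amidating enzyme Pam had 22.4, 22.01 and 23.8 FPKM. Prcp, a carboxypeptidase that inactivates alpha-melanocyte-stimulating hormone, had a mean of 3.91 ± 0.11 FPKM, and Scg5, the chaperone of PCSK2, had a mean of 1.11 ± 0.15 (SD, n = 3). The 6 listed marker genes of pituitary corticotrophs and hypothalamic neurons left almost no reads. Not all of them, Crh and Npy among these, mark cells that express Pomc. None of the 6 genes had at least 3 reads in every replicate, against 58.0% of all genes. Their summed level was 0 to 0.04 FPKM, and Tbx19, Pitx1, Crh and Cartpt were at 0 throughout.

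Downstream of the receptor, 24 genes of cAMP signaling from Gs to CREB were listed. They include every adenylyl cyclase, also the one that Gs does not drive, and the Pde4 phosphodiesterases, which degrade cAMP. Of the 24 genes, 19 (79.2%) had at least 3 reads in every replicate, against 58.0% of all genes. A mean of 1 FPKM was reached by 15, and the median was 4.98 FPKM, against 0.277 FPKM over all genes. Gnas, which encodes the Gs alpha subunit, had 142.9, 144.1 and 127.0 FPKM. The gene has 22 annotated transcripts, so this gene-level value does not give the level of the Gs alpha transcript alone. The protein kinase A genes Prkar1a (88.6, 94.0 and 83.7 FPKM) and Prkaca (88.8, 95.3 and 64.4 FPKM) followed. Among the adenylyl cyclases, Adcy7 was the highest with 39.0, 40.5 and 35.03 FPKM, ahead of Adcy6 with a mean of 11.2 ± 1.84 (SD, n = 3), and Adcy4 and Adcy5 were at 0. The CREB gene itself, Creb1, had a mean of 5.27 ± 1.11 FPKM. Mc1r lay below Gnas, Prkar1a and Prkaca and above Creb1 in every replicate.

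Of 8 genes that phosphorylate or bind active receptors, 6 (75%) had at least 3 reads in every replicate and 5 reached 1 FPKM, with a median of 10.1 FPKM. Over all genes these shares were 58.0% and 45.1%, and nothing is read from the difference on 8 genes. The receptor kinases Grk6 (28.4, 32.5 and 21.7 FPKM) and Adrbk1 (27.8, 31.5 and 21.8 FPKM) were the highest, followed by the arrestins Arrb1 (21.3, 23.4 and 16.8 FPKM) and Arrb2 (15.3, 17.4 and 15.1 FPKM). Grk6, Adrbk1, Arrb1 and Arrb2 shared the order of replicates of Mc1r, and the ranges of Arrb1 and Mc1r overlap. Their GC contents were 57.1%, 56.6%, 53.5% and 55.7%, where the trend between replicates 3 and 4 was also upward, so nothing is read from the shared order. Grk1, the kinase of rhodopsin, was at 0 in every replicate.

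All 9 genes of pigment output had at least 3 reads in every replicate, against 58.0% of all genes, and their median was 65.5 FPKM. Tyrp1 (3331, 2648 and 3452 FPKM), Dct (1431, 1308 and 1498 FPKM) and Pmel (592.4, 622.4 and 511.8 FPKM), which act in eumelanin synthesis and the melanosome matrix, were the highest, and Tyr, the rate-limiting enzyme of melanin synthesis, had 72.5, 59.2 and 74.4 FPKM. Mitf had 22.3, 17.4 and 26.8 FPKM, a range that overlaps that of Mc1r. The exception at the low end was Slc7a11, the cystine transporter that feeds pheomelanin synthesis, with 0.24, 0.23 and 0.26 FPKM. Like Pomc, it lay below 1 FPKM, and their ranges overlap.

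Of 8 genes known from mice in which the switch of coat pigment is altered, 4 (50%) had at least 3 reads in every replicate, against 58.0% of all genes, with a median of 0.18 FPKM. Ostm1 (14.8, 11.9 and 17.3 FPKM), Smchd1 (7.58, 5.80 and 9.47 FPKM), Smarca5 (6.58, 4.55 and 7.30 FPKM) and Ggt1 (0.28, 0.42 and 0.34 FPKM) were measurable. The ectodysplasin genes Eda, Edar and Edaradd had at most 0.02 FPKM, and Mchr1 was at 0.

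**Figure D5:**
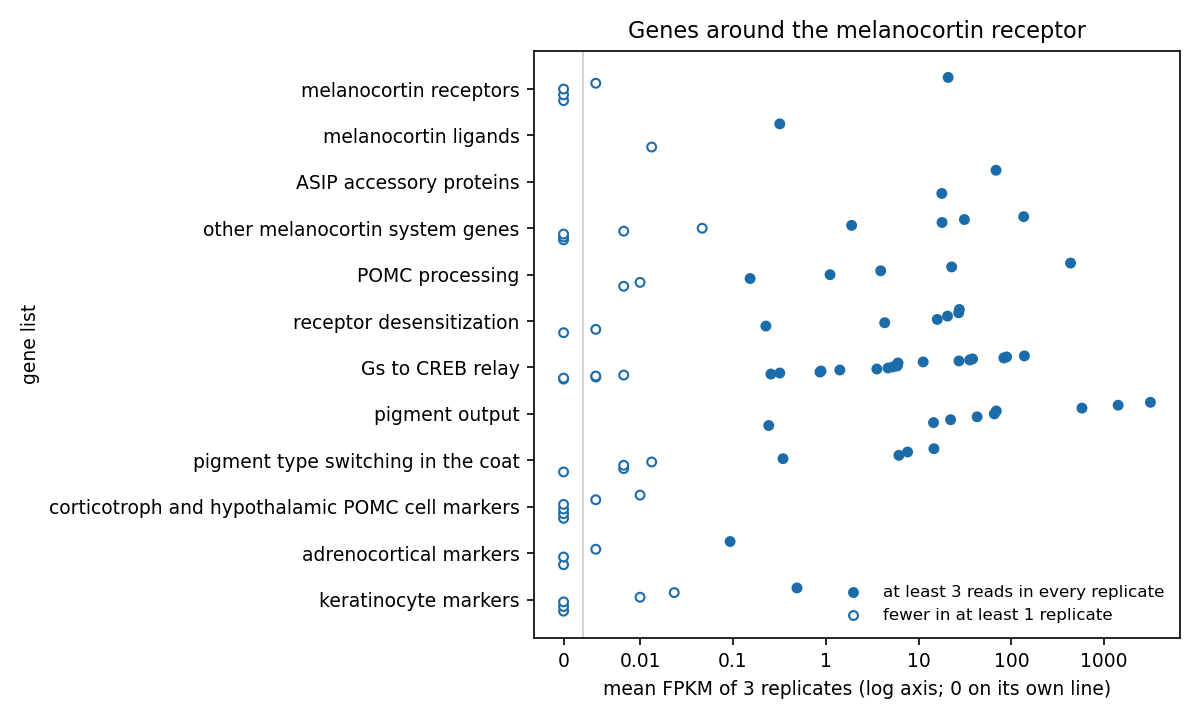
Mean FPKM over the 3 replicates (log horizontal axis, with 0 on a line of its own) of each gene in 12 lists, with filled points for genes of at least 3 reads in every replicate and open points for the others. The filled points of the receptor list are Mc1r alone, the genes of pigment output reach 3144 FPKM, and the corticotroph and hypothalamic markers have no filled point.

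The melanocyte identity of the cells was checked against 8 markers, of which Mitf, Tyr, Tyrp1, Dct and Pmel are also genes of pigment output above. All 8 had at least 3 reads in every replicate, against 58.0% of all genes, and 7 reached 1 FPKM, against 45.1%. They were led by Tyrp1 and Dct, with Mlana at 578.0 ± 52.2 FPKM and Sox10 at 467.9 ± 85.7 FPKM (SD, n = 3). Kit, the stem cell factor receptor, was low at 0.67, 0.59 and 0.78 FPKM. The keratinocyte markers had summed levels of 0.36 to 0.70 FPKM, mostly Krt10, with Krt1, Dsg3 and Trp63 at 0. Of the 6 keratinocyte markers, 1 had at least 3 reads in every replicate, Krt10 with a mean of 0.49 FPKM. Of the fibroblast markers 4 of 6 did, with summed levels of 1.61 to 1.95 FPKM, mostly Col1a1 at 1.54 FPKM, and Lum at 0. Of the adrenocortical markers 1 of 4 did, with summed levels of 0.06 to 0.14 FPKM, mostly Star, and Cyp11a1 and Cyp11b1 at 0. Of the immune markers 2 of 3 did, with summed levels of 0.78 to 1.61 FPKM, mostly Cd68, and Ptprc at 0. The fibroblast and immune counts (66.7% each) lie near the 58.0% of all genes, and nothing is read from them. The replicates held 53900000, 47000000 and 66600000 reads after scaling, and Spearman's rho between replicates across all genes was 0.979 to 0.982. Cdkn2a, the gene of the Ink4a-ARF locus, had 19.2, 16.5 and 24.3 FPKM. A gene-level value does not show which exons the reads come from, so it does not check the labelled deletion.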

How the data were processed

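Untreated melan-a cells were profiled by stranded mRNA-seq in 3 replicates of 1 group, each sequenced in 3 lanes. The deposited values are FPKM of 22698 Ensembl genes, which the authors had scaled with the trimmed mean of M-values method and written with 2 decimals. Per the study's methods, 10 bases were trimmed, reads were aligned to mm9, and reads were counted on Ensembl release 67 after those of rRNA had been taken out. The submitters' processing notes name CASAVA 1.8.2, STAR 2.3.0e, SAMtools, HTSeq 0.5.3p3 and edgeR. How counts became FPKM is not given in the sources used here.

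Gene models came from Ensembl release 65 on mm9, which held 22324 of the genes. Raw counts were not analysed here. Low values of genes with 1 transcript fell on whole reads, which gave scaled library sizes of 53900000, 47000000 and 66600000 reads from 170, 163 and 193 genes, with mean distances of 0.0568, 0.0559 and 0.0823 reads from a whole number. For genes whose models differ, the joined exons of protein-coding transcripts lay closer to whole reads (0.0896 to 0.157) than all exons (0.218 to 0.261) or the longest transcript (0.202 to 0.232), and their length was used. A gene was called measurable with 3 reads in every replicate. Poisson intervals are exact at 95% and, since reads carry no molecular identifiers, cover counting error only. The series calls the samples biological replicates without naming separate cultures, and the SDs measure the spread between these samples. GC trends were fitted in 40 bins over genes of at least 1 FPKM.

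The members and lists were chosen with earlier results of these data known. Named genes are the members, the 4 highest genes of each list and its defining genes at 0, the 3 genes nearest in level to Mc1r, Mgrn1 and Atrn, overlapping or neighboring genes, and Cdkn2a. Adcy6, Creb1, Slc7a11, Mitf, Sox10, Kit, Pcsk1, Pcsk2, Pcsk1n, Agrp, Mrap, Eda, Edar, Edaradd and genes of the marker and receptor lists outside this rule were named after their values were seen. The alternatives were each replicate left out, the median, other gene lengths, the GC trend removed, rescaling to a common sum, other minimums, thresholds and pseudocounts, and rank among other sets of genes. The scripts were tested on simulated data and run with numpy 2.4.6, scipy 1.17.1, pandas 2.3.3 and matplotlib 3.10.9 under Python 3.11.15.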

Additional observations from a re-analysis of the deposited data

How the results depend on the processing

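No paired analysis was possible because the series holds 1 group. Leaving out each replicate in turn, using the median or removing the GC trend moved the levels and ranks of Mc1r, Pomc, Atrn and Mgrn1 and the ratios between Mc1r, Mgrn1 and Atrn by less than the spread between replicates. Rescaling each replicate to sum to 1000000 changes the unit, and gave 55.1 for Mc1r, 0.858 for Pomc, 47.4 for Atrn and 181 for Mgrn1. Rescaled without mitochondrial genes they were 61.5, 0.960, 53.0 and 202. With the length of the longest transcript, the ratio of Mc1r to Mgrn1 was 0.299 in place of 0.305. With all annotated exons, the ratio of Mgrn1 to Atrn was 5.91 and that of Mc1r to Atrn 1.80, with ranges that no longer overlapped, by the construction of this length. This length, and all alternatives for the ratio of Mc1r to Atrn, were chosen after seeing the data. With a minimum of 10 reads in place of 3, the measurable members numbered 3 in place of 4, since Pomc had 9 reads in replicate 3. Of 112 counts over the lists, 104 stayed within 1.5 times and 8 moved. The keratinocyte count rose from 1 to 2 without replicate 1. Without replicate 3, where it had its 2 reads, Asip fell to rank 15264 from 13810. Asip and the receptors Mc2r to Mc5r stayed below the minimum, and whether greater depth would detect them was not tested.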
